A study of Mus musculus with 14 samples.

Results

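A group of 7 genes that set how strongly a T cell answers its antigen receptor was followed across the 4 groups of cells: Cd5, Cd6, Themis, Ptpn22, Ptpn6, Cblb and Ubash3a. They were taken by gene symbol from the deposited count table, which held a line for each of the 7 among 55486 genes. All 7 passed the filter on low counts in each comparison. The cells were CD8 T cells of mouse, isolated, activated on day 0 with antibodies against CD3 and CD28, and expanded in culture for 8 days before polyadenylated RNA was sequenced in 14 libraries. The study asked how loss or inhibition of DOT1L, a histone H3 methyltransferase, alters the transcriptome.

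All mice were heterozygous for OT-I, a transgenic T cell receptor against a peptide of ovalbumin. The KO group (3 libraries) was heterozygous for CreERT2, a tamoxifen-inducible Cre, and homozygous for the floxed Dot1l allele. The WT group (3 libraries) was heterozygous for CreERT2 and wild type at Dot1l. Both received 10 nM 4-hydroxytamoxifen on day 0, so the WT controls share the Cre and the tamoxifen. The DMSO and EPZ groups (4 libraries each) came from mice wild type for Cre and for Dot1l, and their cells were given either 0.1% DMSO or EPZ-5676, which inhibits DOT1L, every 2 days. For the inhibitor the treatment field gives a dose of 10 mM, whereas the library names read 10 uM, and which holds is not known. The library names give the same 4 animals for DMSO and EPZ. Neither the promoter that drives CreERT2 nor the age of the mice was known here.

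The T cell receptor starts its signal when the kinase LCK phosphorylates the CD3 chains and ZAP70, and phosphatases, inhibitory receptors and ubiquitin ligases set how far that signal runs. CD5 and CD6 are related surface receptors that sit beside the T cell receptor and recruit inhibitory and scaffold proteins to it. THEMIS is an adaptor that binds GRB2 and the phosphatase SHP1 and is needed for the selection of thymocytes. PTPN22 and SHP1 (the product of Ptpn6) remove phosphate from the receptor-proximal kinases and their substrates, CBL-B marks signalling proteins with ubiquitin, and UBASH3A (STS2) is a further suppressor of the receptor signal.

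Library totals ran from 5643724 to 20586093 counts, and mitochondrial genes took 0.645% to 1.78% of them. Dot1l itself was higher in the libraries labelled KO (189 to 218 CPM, counts scaled to a common library total) than in WT (133 to 140 CPM), by 0.59 ± 0.07 in log2 (SE; edgeR adjusted p = 1.3e-05), and counts over the whole gene cannot show whether the floxed part was removed. Directions drawn from that group below are therefore those of the KO-labelled libraries. The sex read from Xist and Ddx3y differed from the label in 4 libraries (KO-labelled 2 and 3, WT 2 and 3). It matched the label in all 8 libraries of the inhibitor experiment. KO-labelled 2 and WT 3 are labelled female and read as male, and KO-labelled 3 and WT 2 the reverse. By label and by read, each group thus holds the same numbers of males and females. Whether labels were exchanged within a group was not tested. These 4 are called the libraries in doubt below, for their sex label alone. With the sex read as a covariate in the KO comparison and no library left out, all 7 genes were called lower. Values for the 7 genes in the KO comparison are given with and without the 4 libraries that differed. Without these 4, 1 library is left in each group, and it was part of the main fit. Any SE or adjusted p of that setting comes from the spread of DMSO and EPZ. The setting is therefore no independent check of the 7 genes. Dot1l was higher without the 4 libraries too, by 0.7 in log2. Of 75 other listed, neighbouring or similar genes called in the KO comparison, 75 had the same direction without the 4 libraries. The libraries left were part of the fit that called these genes, so this match was largely set in advance. Where the KO value of a named gene did not pass without the 4 libraries, that is given beside it.

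Of the defining CD8 T cell markers, Cd3e, Cd3d, Trac, Cd8a, Cd8b1 and Cd2 were all detected. Their summed level was 1368 to 1435 CPM in KO-labelled cells, 2744 to 2928 in WT, 3044 to 3424 in DMSO and 2098 to 2273 in EPZ. Of the 6, 5 were called lower in KO-labelled cells and 4 under the inhibitor. Over all genes tested, 20.2% were called lower and 20.3% higher in KO-labelled cells, and 8.31% and 11.9% under the inhibitor. Markers of other cells were summed likewise. The 8 NK cell markers came to 1107 to 1161 CPM in KO-labelled cells, 954 to 1168 in WT, 694 to 768 in DMSO and 866 to 925 in EPZ, a sum carried by Nkg7 and Eomes. Of those markers, 3 of 5 tested were called higher in KO-labelled cells and 2 of 4 tested under the inhibitor. Klrb1c rose from 15.7 to 74.4 CPM (adjusted p = 2.3e-06, edgeR) and from 4.38 to 27.5 CPM (adjusted p = 1.1e-05). Eomes rose by 0.30 in log2 (adjusted p = 0.0271, not passed without the 4 libraries) and by 0.65 (adjusted p = 7.9e-04). Ncr1, at 0 in WT, reached 4.52 CPM in KO-labelled cells. Klre1 and Nkg7 did not pass in either comparison, with -0.58 (adjusted p = 0.0732, edgeR) and -0.08 (adjusted p = 0.382) in KO-labelled cells. Klra8, Klra4 and Klra7 were under 1 CPM in every library. The 5 gamma delta T cell markers in the table came to 113 to 121, 211 to 264, 241 to 260 and 247 to 278 CPM in the same order of groups. Of 4 tested, 4 were called lower in KO-labelled cells and 1 under the inhibitor. Among B cell markers Ms4a1 was at 0, and Cd79a, Pax5 and Blk were each under 1 CPM in every library. Ighm measured 117 to 137 CPM in KO-labelled cells, 473 to 578 in WT, 1021 to 1272 in DMSO and 412 to 539 in EPZ, and was called lower in both comparisons. Cd79b averaged 3.15, 8.92, 9.48 and 9.05 CPM in that order and was called lower in KO-labelled cells alone. Ighd averaged 0.496, 2.98, 10.4 and 3.57 CPM and was called lower in both, in KO-labelled cells not without the 4 libraries. Cd22 did not pass the filter on low counts in either comparison. Of 10 myeloid markers, 6 were under 1 CPM in every library and Spi1 was at 0. In each comparison 2 of the 3 tested were called higher, and the sum ran from 4.91 CPM in DMSO to 25.6 CPM in the KO-labelled group. The 5 CD4 and regulatory T cell markers came to 54.7 to 59.9 CPM in KO-labelled cells, 41.2 to 60.2 in WT, 61.2 to 84.7 in DMSO and 46.7 to 60.7 in EPZ, and their members moved in different directions. Foxp3 fell by 2.16 in KO-labelled cells (adjusted p = 1.8e-04, not passed without the 4 libraries) and by 1.27 under the inhibitor (adjusted p = 0.0153), Cd4 fell by 1.27 under the inhibitor (adjusted p = 0.00357), and Zbtb7b rose by 0.70 in KO-labelled cells (adjusted p = 3.2e-05, not passed without the 4 libraries). The part of these shifts in the results was not tested. In such bulk cultures, fewer cells that express a gene and less RNA per cell cannot be told apart.

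All 7 genes were lower in KO-labelled than in WT cells, and 4 of the 7 (Cd5, Cd6, Ptpn22 and Cblb) were lower under the inhibitor than in DMSO. Cd6 fell most in both experiments, 9.46-fold in KO-labelled cells and 2.09-fold under EPZ-5676. The background of the KO comparison is broad. Of 11570 genes tested, 20.2% were called lower and 20.3% higher at an adjusted p of 0.05 (edgeR quasi-likelihood test, Benjamini-Hochberg adjustment over all genes). Of 12208 genes tested under the inhibitor, 8.31% were called lower and 11.9% higher. The median log2 fold change of the 7 genes was -0.92 in the KO comparison, where that of all genes was -0.006, and -0.31 under the inhibitor, where that of all genes was -0.008. Of 11364 genes tested in both, 6.19% were lower in both experiments, against the 4 named here. Without the 4 libraries whose sex went against the label, 1 library is left in each group, and the spread is taken from the inhibitor experiment. The log2 fold changes of the 7 genes then ran from -3.07 for Cd6 to -0.20 for Cblb. The libraries left were part of the main fit, so this match in direction was largely set in advance.

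**Figure D1:**
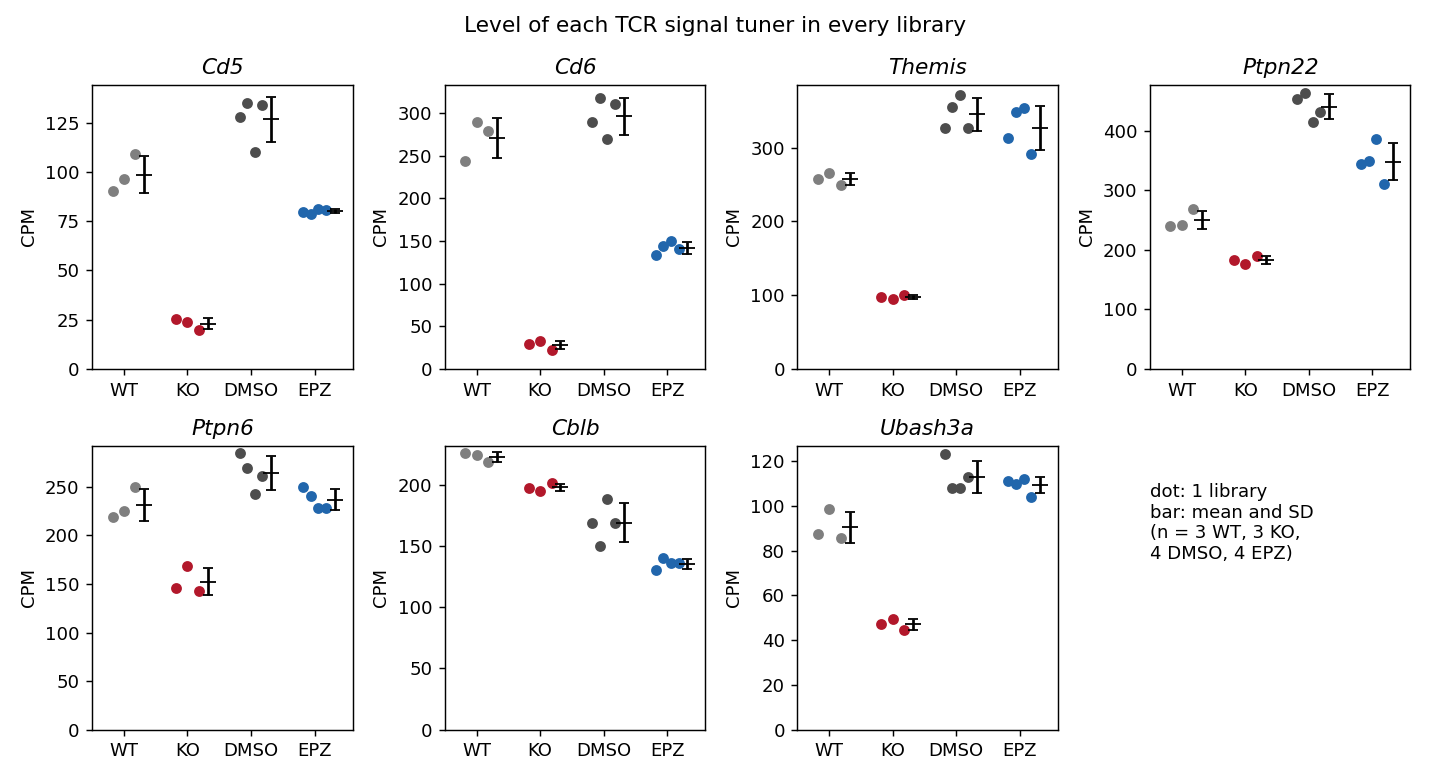
Level of each of the 7 genes (vertical axis, CPM, starting at 0) in every library of WT, KO (the KO-labelled libraries), DMSO and EPZ; each dot is 1 library, and the bar beside it is the mean and SD (n = 3, 3, 4 and 4). The 3 KO-labelled libraries lie below the 3 WT libraries in each panel, while Themis, Ptpn6 and Ubash3a overlap between DMSO and EPZ. The share of all genes whose libraries separate in this way was not counted.

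The promoters of these genes in RefSeq (build GRCm38.p6) are shown as a description, and 6 of the 7 matched an entry of the promoter table. Cd6 was the gene without one. Each entry spans 250 bases before to 50 bases after an annotated start. In the sequences below the dinucleotide CG is in capitals on the gene's own strand, all other bases are in lower case, and the last 50 bases of each follow the annotated start. The Cd5 window lies at chr19:10738925-10739224 on the minus strand, Themis at chr10:28668110-28668409 on the plus strand and Cblb at chr16:52031299-52031598 on the plus strand.
Cd5: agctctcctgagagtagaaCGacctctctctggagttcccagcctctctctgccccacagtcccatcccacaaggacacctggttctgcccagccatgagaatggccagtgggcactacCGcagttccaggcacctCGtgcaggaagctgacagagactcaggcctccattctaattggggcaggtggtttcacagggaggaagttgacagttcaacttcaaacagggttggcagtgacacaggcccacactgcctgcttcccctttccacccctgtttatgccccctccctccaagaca
Themis: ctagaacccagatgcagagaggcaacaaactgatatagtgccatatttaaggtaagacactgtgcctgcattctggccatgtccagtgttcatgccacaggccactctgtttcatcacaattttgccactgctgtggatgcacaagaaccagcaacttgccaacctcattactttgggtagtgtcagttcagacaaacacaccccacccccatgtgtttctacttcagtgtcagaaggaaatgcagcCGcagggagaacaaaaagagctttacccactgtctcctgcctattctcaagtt
Cblb: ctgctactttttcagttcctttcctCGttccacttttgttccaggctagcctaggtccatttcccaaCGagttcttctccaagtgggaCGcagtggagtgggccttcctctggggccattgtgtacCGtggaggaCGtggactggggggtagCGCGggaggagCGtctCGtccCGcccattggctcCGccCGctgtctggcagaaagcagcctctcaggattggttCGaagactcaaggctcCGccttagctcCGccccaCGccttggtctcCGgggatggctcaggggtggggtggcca

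The Cd5 window held 3 CG dinucleotides and the Themis window 1, below the median of 7 over 32817 promoters of the same length (quartiles 3 and 20). At most 3 were found in 31.4% of all those promoters and at most 1 in 14.1%. The Cblb window held 17, and 70.3% of all promoters held at most that many. Ptpn22 and Ubash3a held 6 each and Ptpn6 held 8, close to the median. A second annotated start gave 2 for Themis and 3 for Ptpn22. Cblb, with the most, had the smallest change of the 6 in the KO comparison and was called lower under the inhibitor. Themis, with the fewest, was called lower in the KO comparison alone, as were Ptpn6 and Ubash3a. Cd5 and Ptpn22, like Cblb, were called lower in both comparisons. This describes 6 genes, and a link between CG content and the changes was not tested.

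Cd5 (ENSMUSG00000024669, chr19:10717116-10739002 in mm10, minus strand, protein coding) measured 25.2, 23.7 and 19.7 CPM in the 3 KO-labelled libraries and 90.5, 96.5 and 109 CPM in WT. It measured 128, 135, 110 and 134 CPM in DMSO and 79.7, 78.8, 81.2 and 80.7 CPM in EPZ. The EPZ libraries lay within a narrow band below every DMSO library, and the KO-labelled libraries lay far below every other. The log2 fold change of Cd5 was -2.1 ± 0.10 (SE) in KO-labelled cells, a 4.3-fold decrease (adjusted p = 6.9e-09, edgeR). Under the inhibitor it fell by 0.66 ± 0.07, a 1.58-fold decrease (adjusted p = 0.00012, edgeR), and it was lower in EPZ than in DMSO in each of the 4 animals, by log2 values of -0.69, -0.77, -0.43 and -0.73. Leaving out the 4 libraries in doubt gave a KO log2 fold change of -1.85.

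Cd6 (ENSMUSG00000024670, chr19:10789341-10830058, minus strand, protein coding) encodes the receptor for the adhesion molecule ALCAM. Its level was 29.1, 32.4 and 22.6 CPM in KO-labelled cells and 244, 289 and 279 CPM in WT. In DMSO it was 289, 317, 269 and 310 CPM, and in EPZ 133, 144, 150 and 140 CPM. WT and DMSO overlapped, EPZ stood between them and the KO-labelled libraries, and no EPZ library reached a DMSO library. The log2 fold change was -3.24 ± 0.11 in KO-labelled cells (adjusted p = 6.4e-10, edgeR) and -1.06 ± 0.07 under EPZ-5676 (adjusted p = 8.5e-06, edgeR). Within animals the inhibitor values ran from -1.15 to -0.84, lower in 4 of 4. Among all genes tested Cd6 had the 8th largest fall in the KO comparison and the 63rd largest under the inhibitor, where Cd5 was 43rd and 256th. The KO value was -3.07 without the 4 libraries in doubt.

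Cd5 and Cd6 are neighbours on chromosome 19, separated by 50.3 kb that hold 1 gene of the table, the lincRNA A430093F15Rik on the opposite strand (chr19:10740947-10786043). It measured 3.29, 3.15 and 2.68 CPM in KO-labelled cells, 10.2, 15.4 and 13.5 CPM in WT, 22.7, 24.5, 25.5 and 24.4 CPM in DMSO, and 12.6, 17.0, 13.7 and 11.7 CPM in EPZ. Neither pair of groups overlapped. A430093F15Rik lay lower in the same comparisons as both of its neighbours. Its log2 fold changes were -2.07 ± 0.19 in KO-labelled cells (adjusted p = 1.9e-06, edgeR) and -0.80 ± 0.11 under the inhibitor (adjusted p = 5.9e-04). The KO value was -1.62 without the 4 libraries in doubt. The next genes tested on either side did not fall past the threshold. Vps37c, a subunit of the ESCRT-I sorting complex beyond Cd5, had log2 fold changes of -0.20 (adjusted p = 0.0502) and 0.15 (adjusted p = 0.253). Tmem109, a membrane protein gene beyond Cd6, had 0.18 (adjusted p = 0.0517) in the KO comparison and rose by 0.46 (adjusted p = 0.00498) under the inhibitor.

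**Figure D2:**
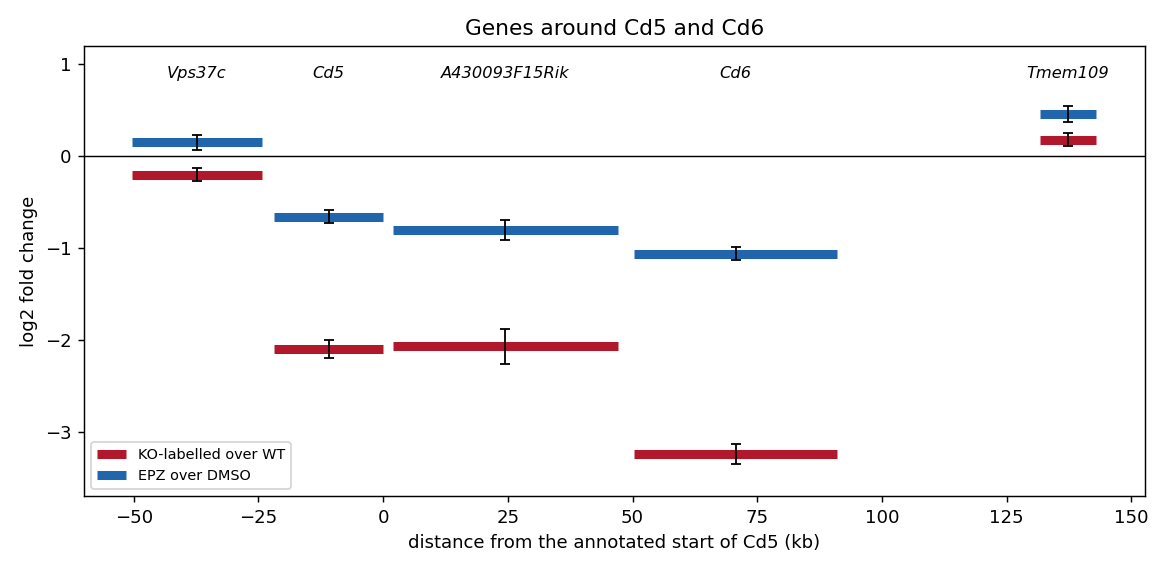
Log2 fold change (vertical axis) of the 5 genes around Cd5 and Cd6, each drawn as a horizontal bar over its own span against the distance from the annotated start of Cd5 (kb); red is KO-labelled over WT, blue is EPZ over DMSO, and the thin bar is the SE. Cd5, A430093F15Rik and Cd6 lie below 0 in both experiments, with Cd6 lowest at -3.24 and -1.06, while Vps37c and Tmem109 lie near or above 0.

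The ligand of CD6 was measured in the same cells. Alcam, which encodes it, is also the nearest tested gene on one side of Cblb. It was at 16.7, 18.8 and 21.3 CPM in KO-labelled cells and 12.3, 12.8 and 15.7 CPM in WT, and at 11.2, 10.6, 11.4 and 12.0 CPM in DMSO and 8.35, 7.48, 7.81 and 8.46 CPM in EPZ. It moved in opposite directions: it rose by 0.45 ± 0.13 on the log2 scale in KO-labelled cells (adjusted p = 0.0122, edgeR) and fell by 0.49 ± 0.09 under the inhibitor (adjusted p = 0.00472), and the difference of those effects was 0.94 (adjusted p = 0.00128). Neither the rise (0.44, adjusted p = 0.181) nor the difference (0.93, adjusted p = 0.084) passed without the 4 libraries in doubt. Of the other listed ligands and related receptors, Cdcp1, Cd5l, Cd163 and Ssc5d did not pass the filter on low counts in either comparison.

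Themis (ENSMUSG00000049109, chr10:28668360-28883818, plus strand, protein coding) behaved differently in the 2 experiments. It measured 96.8, 95 and 100 CPM in KO-labelled cells against 258, 265 and 249 CPM in WT. In DMSO it measured 327, 355, 371 and 326 CPM and in EPZ 313, 348, 354 and 291 CPM, so that DMSO and EPZ overlapped. Themis fell by 1.39 ± 0.06 on the log2 scale in KO-labelled cells, a 2.63-fold decrease (adjusted p = 3.8e-09, edgeR). The log2 fold change without the 4 libraries in doubt was -1.42. Under the inhibitor its log2 fold change was -0.07 ± 0.08 (adjusted p = 0.542), with values between -0.16 and -0.03 in the 4 animals. An antisense pseudogene, 4930519F09Rik, overlaps 1.31% of the exon bases of Themis and held 1 count over all libraries.

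Ptpn22 (ENSMUSG00000027843, chr3:103859795-103912247, plus strand, protein coding) encodes a tyrosine phosphatase that acts on LCK and ZAP70. Its level was 183, 176 and 189 CPM in KO-labelled cells and 241, 242 and 268 CPM in WT. It was 454, 463, 415 and 432 CPM in DMSO and 344, 350, 387 and 311 CPM in EPZ. Neither comparison overlapped, and the controls differed in level, with every DMSO library above every WT library. The log2 fold changes were -0.45 ± 0.06 in KO-labelled cells (adjusted p = 7.7e-05, edgeR) and -0.34 ± 0.07 under EPZ-5676 (adjusted p = 0.00808, edgeR). Animal 3 gave -0.10, and the other animals gave -0.40, -0.41 and -0.47. When the 4 libraries in doubt were left out, the KO value was -0.40 ± 0.15 and no longer passed (adjusted p = 0.141).

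Ptpn6 (ENSMUSG00000004266, chr6:124720707-124738714, minus strand, protein coding), the gene of SHP1, was the most abundant of the 7 per kilobase of exon in every group. It measured 146, 168 and 143 CPM in KO-labelled cells and 219, 225 and 250 CPM in WT, with no overlap. It measured 285, 269, 243 and 261 CPM in DMSO and 250, 241, 228 and 228 CPM in EPZ, with overlap. Ptpn6 fell by 0.59 ± 0.07 on the log2 scale in KO-labelled cells (adjusted p = 3.4e-05, edgeR). Its log2 fold change without the 4 libraries in doubt was -0.58. Under the inhibitor it was -0.16 ± 0.06 (adjusted p = 0.099), negative in 4 of 4 animals (-0.20 to -0.09), and with the animal as a block the adjusted p was 0.0486. The antisense gene Gm20531 overlaps 6.96% of its exon bases and held 14 counts over all libraries, against 43937 for Ptpn6.

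Cblb (ENSMUSG00000022637, chr16:52031225-52208048, plus strand, protein coding) encodes a ubiquitin ligase that makes T cell activation depend on costimulation. It was at 197, 195 and 201 CPM in KO-labelled cells and 226, 224 and 218 CPM in WT, and at 169, 150, 188 and 169 CPM in DMSO and 130, 140, 136 and 136 CPM in EPZ. Unlike the other 6 genes, its lowest level was in EPZ and its KO-labelled libraries lay above every DMSO library. The change in KO-labelled cells was small, -0.16 ± 0.05 (adjusted p = 0.0294, edgeR), and lay close to the threshold. It did not pass without any 1 of KO-labelled libraries 1, 2 and 3 (adjusted p 0.0937, 0.152 and 0.0591) or of WT libraries 1 and 2 (0.0569 and 0.057), nor with DESeq2 (0.0761). Leaving out the 4 libraries in doubt gave -0.20 ± 0.14 (adjusted p = 0.451). Under the inhibitor Cblb fell by 0.31 ± 0.07 (adjusted p = 0.00873, edgeR), lower in 4 of 4 animals with log2 values of -0.47 to -0.09.

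Ubash3a (ENSMUSG00000042345, chr17:31207873-31246892, plus strand, protein coding) encodes a protein that binds ubiquitin and CBL proteins. It measured 47.0, 49.3 and 44.7 CPM in KO-labelled cells and 87.3, 98.5 and 85.6 CPM in WT, and 123, 108, 108 and 113 CPM in DMSO and 111, 110, 112 and 104 CPM in EPZ. The genetic groups stood apart and the inhibitor groups overlapped. Ubash3a fell by 0.92 ± 0.08 on the log2 scale in KO-labelled cells, a 1.9-fold decrease (adjusted p = 1.3e-06, edgeR). The KO value was -0.89 without the 4 libraries in doubt. Under the inhibitor its log2 fold change was -0.05 ± 0.06 (adjusted p = 0.592), below 0 in 2 of 4 animals. Its neighbour Abcg1, a sterol exporter, fell in both experiments, by 1.31 (adjusted p = 5.3e-08) and by 0.60 (adjusted p = 0.00101), and Slc37a1 on the other side fell by 0.40 in KO-labelled cells (adjusted p = 0.00349), a call lost without the 4 libraries in doubt (adjusted p = 0.213).

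The neighbours of the remaining genes were also tested. The nearest tested genes to Themis were far off, Arhgap18 at 1750 kb and Echdc1 at 429 kb. They had log2 fold changes of 0.01 and 0.24 in the KO comparison and -0.11 and 0.03 under the inhibitor, and none passed. Beside Ptpn22, Rsbn1 fell by 0.51 in KO-labelled cells (adjusted p = 0.00101), and Ap4b1 did not pass (0.91, adjusted p = 0.0666). Gm6767, 667 kb from Cblb on the side away from Alcam, had -0.53 (adjusted p = 0.056) and -0.13 (adjusted p = 0.666). Beside Ptpn6, Phb2 rose by 0.17 (adjusted p = 0.0384) while Ptpn6 fell, and Grcc10 did not pass. Neither Rsbn1 nor Phb2 passed without the 4 libraries in doubt (adjusted p = 0.188 and 0.755).

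**Figure D3:**
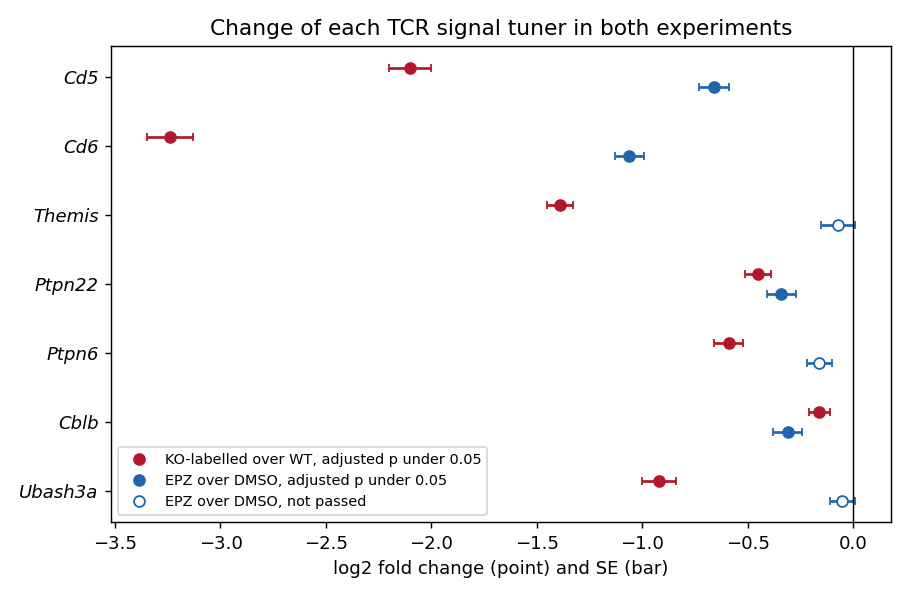
Log2 fold change (horizontal axis, point) with its SE (bar) of the 7 genes in KO-labelled over WT (red) and EPZ over DMSO (blue); filled points passed an adjusted p of 0.05 and open points did not. Cd6, Cd5, Themis and Ubash3a lie far from their inhibitor values, while the values of Ptpn22 (-0.45 and -0.34) lie close together.

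Whether a gene answered differently in the 2 experiments was tested directly, as the KO effect minus the inhibitor effect over all 14 libraries. Of the 7 genes, 5 fell more in KO-labelled cells than under the inhibitor, where 4.31% of 12639 genes were called in that direction. The difference on the log2 scale was -2.19 ± 0.14 for Cd6 (adjusted p = 3.8e-07, edgeR), -1.45 ± 0.13 for Cd5 (adjusted p = 4.0e-06), -1.33 ± 0.10 for Themis (adjusted p = 2.1e-06), -0.88 ± 0.09 for Ubash3a (adjusted p = 3.0e-05) and -0.44 ± 0.10 for Ptpn6 (adjusted p = 0.0141). The difference for Ptpn6 did not pass without KO-labelled library 1 (adjusted p = 0.0507) or 3 (adjusted p = 0.053). No difference was called for Ptpn22 (-0.11 ± 0.10, adjusted p = 0.561) or Cblb (0.14 ± 0.09, adjusted p = 0.39). Without the 4 libraries in doubt, the differences were -2 for Cd6, -1.18 for Cd5, -1.34 for Themis and -0.84 for Ubash3a. That of Ptpn6 was -0.42 and did not pass. The experiments differ in Cre, tamoxifen, solvent and animals as well as in the way DOT1L was targeted, and these cannot be told apart.

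The order of the groups by mean level was set out for each gene with no test, since WT and DMSO differ in several ways. DMSO was highest and KO-labelled lowest for Cd5, Cd6, Themis, Ptpn22, Ptpn6 and Ubash3a. For Cd5 the order was DMSO (127 ± 11.8 CPM, SD, n = 4), WT (98.6 ± 9.27, n = 3), EPZ (80.1 ± 1.08, n = 4) and KO-labelled (22.9 ± 2.85, n = 3), with no neighbours overlapping. For Cd6 it was DMSO (296 ± 21.8), WT (271 ± 23.8), EPZ (142 ± 7.25) and KO-labelled (28 ± 4.98), and DMSO and WT overlapped. For Themis, Ptpn22 and Ubash3a the EPZ libraries lay above every WT library, at means of 327, 348 and 109 CPM against 257, 250 and 90.5 CPM. For Ptpn6 the libraries of DMSO, EPZ and WT overlapped with each other, at 265, 237 and 231 CPM. Cblb alone ran from WT (223 ± 3.96 CPM) to KO-labelled (198 ± 3.06), DMSO (169 ± 15.8) and EPZ (136 ± 4.45).

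Levels between genes were compared per kilobase of merged exons. Ptpn6 had the highest value in every group (82.5 CPM per kb in WT, 54.4 in KO-labelled cells) and Ptpn22 the second (36.9 and 27.0). Cd6 ranked 3 of 7 in WT at 34.0 CPM per kb and 7 of 7 in KO-labelled cells at 3.52. Cd5 was at 20 and 4.64, Themis at 22.0 and 8.33, Cblb at 21.3 and 18.9, and Ubash3a at 8.05 and 4.18 CPM per kb in WT and KO-labelled cells. In EPZ Cd6 ranked 4 of 7 at 17.8 CPM per kb, and Themis (28) and Cd5 (16.3) stood on either side of it. The merged exons hold the exons of all annotated transcripts, so a gene with long unused exons reads low.

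Genes with the most similar pattern were sought among 9335 genes with a mean of at least 5 CPM, by the root mean square difference of log2 CPM over the 14 libraries after each gene was centred on its own mean. The 14 points share the 2 experiments and the spread of the groups, so the values are a description. Nearest to Cd5 were Plcg1, the phospholipase that the receptor activates (0.17), and the lymphotoxin gene Ltb (0.19), against a spread of 0.92 for Cd5 itself about its mean. Plcg1 measured 87.4, 322, 380 and 270 CPM in KO-labelled, WT, DMSO and EPZ cells, with log2 fold changes of -1.86 (adjusted p = 3.4e-08) and -0.49 (adjusted p = 3.6e-04). Nearest to Cd6 was the co-receptor gene Cd8a (0.25, against a spread of 1.31), at 115, 705, 834 and 398 CPM, with log2 fold changes of -2.60 (adjusted p = 4.3e-09) and -1.06 (adjusted p = 8.5e-06). The inhibitor value of Cd8a thus equalled that of Cd6 to the second decimal, while Cd6 fell further in KO-labelled cells. The second for Cd6 was the interferon receptor chain Ifngr2 (0.39).

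Themis was nearest to the death receptor gene Fas (0.16) and to Sh3bp5 (0.18), both of which, unlike Themis, passed the threshold under the inhibitor with log2 fold changes of -0.34 (adjusted p = 0.0398) and -0.36 (adjusted p = 0.0184). The KO values of Fas and Sh3bp5 without the 4 libraries in doubt were -1.14 and -1.04. Ptpn22 was nearest to Mplkip and Riox2 (0.07 each), Ptpn6 to Hp1bp3 (0.08) and to Ikzf1 (0.09), the gene of the lymphoid factor Ikaros, Cblb to Oga and Zswim8 (0.08 each), and Ubash3a to Cd99l2 (0.07) and the coactivator gene Ncoa3 (0.12). Among the 7 themselves, Ptpn22 and Ubash3a were the closest pair (0.22), Cd6 and Cblb the farthest (1.36), and the neighbouring genes Cd5 and Cd6 differed by 0.43, more than Cd5 and Themis (0.35).

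Further genes of the receptor pathway were counted in 5 lists. Of 19 genes of the receptor-proximal machinery, 12 were lower and 1 higher in KO-labelled cells (median log2 fold change -0.43), where 20.2% of all genes were lower and 20.3% higher. Under the inhibitor 7 were lower and 1 higher (median -0.15), where 8.31% of all genes were lower and 11.9% higher. The co-receptor gene Cd8b1 fell by 2.33 (adjusted p = 4.5e-10) and by 1.15 (adjusted p = 1.1e-05), and Grap2, an adaptor of SLP76, fell by 1.24 (adjusted p = 9.5e-09) and by 0.26 (adjusted p = 0.00785). The kinase gene Lck fell by 0.51 in KO-labelled cells (adjusted p = 1.2e-05) and had -0.06 under the inhibitor (adjusted p = 0.487). Cd3e had 0.16 (adjusted p = 0.0891) and -0.15 (adjusted p = 0.124). Lcp2, which encodes SLP76, rose by 0.21 (adjusted p = 0.0123, not passed without the 4 libraries in doubt) and by 0.19 (adjusted p = 0.0397). Lcp2 was the single gene called higher in each comparison. That count was 0 in the KO comparison without KO-labelled library 1, and 0 under the inhibitor with other size factors, with no filter, or without any 1 of the 8 libraries. Without the 4 libraries in doubt, with 1 library left in each group, fewer of these genes were called in KO-labelled cells, as were fewer of all genes.

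Among 14 other phosphatases and kinases that restrain the receptor, 6 were lower and 1 higher in KO-labelled cells (median -0.17; all genes 20.2% and 20.3%), and 2 were lower and 1 higher under the inhibitor (median -0.03; all genes 8.31% and 11.9%), a share near that of all genes. The 2 lower under the inhibitor became 1 without DMSO library 3, DMSO library 4 or EPZ library 1, and the 1 higher in KO-labelled cells became 2 without WT library 3. Pag1, the membrane anchor of the inhibitory kinase CSK, fell by 1.24 (adjusted p = 1.4e-07) and by 0.29 (adjusted p = 0.0364), while Csk itself had -0.02 (adjusted p = 0.827) and 0.01 (adjusted p = 0.948). Dgka, a kinase that removes diacylglycerol, fell by 0.92 (adjusted p = 4.4e-07) and by 0.52 (adjusted p = 3.3e-04). The phosphatase gene Ptpn7 rose in both, by 0.51 (adjusted p = 7.4e-06) and by 0.38 (adjusted p = 6.4e-04), opposite to Ptpn22 and Ptpn6. In KO-labelled cells fewer were called lower without the 4 libraries in doubt, as were fewer of all genes.

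Of 11 adaptors tested, 6 were lower and 1 higher in KO-labelled cells (median -0.33; all genes 20.2% and 20.3%), and 2 were lower and 1 higher under the inhibitor (median -0.07; all genes 8.31% and 11.9%), the last near the share of all genes. The 1 higher in KO-labelled cells became 2 without WT library 3. Sh3kbp1, which encodes a partner of CBL proteins, fell by 1.19 (adjusted p = 9.1e-09) and by 0.50 (adjusted p = 4.8e-04). The related adaptor genes Sla and Sla2 fell by 0.82 (adjusted p = 3.1e-07) and by 0.60 (adjusted p = 1.5e-05) in KO-labelled cells. Under the inhibitor Sla2 fell by 0.61 (adjusted p = 3.0e-04) and Sla had -0.24 (adjusted p = 0.0948). Themis2, a relative of Themis, had 0.61 (adjusted p = 0.104) in the KO comparison and rose by 0.96 (adjusted p = 0.0117) under the inhibitor, from 1.57 to 3.13 CPM. Fewer adaptors were called in KO-labelled cells without the 4 libraries in doubt, as were fewer of all genes.

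Of 12 other ubiquitin ligases and Sts proteins, 5 were lower and 3 higher in KO-labelled cells (median 0.01; all genes 20.2% and 20.3%), and 3 were lower and 2 higher under the inhibitor (median -0.02; all genes 8.31% and 11.9%). The 3 lower became 1 without EPZ library 2 or EPZ library 4. Rnf128, which encodes the ligase GRAIL, rose by 2.24 (adjusted p = 1.0e-06) and by 1.64 (adjusted p = 0.00187), from 2.30 to 11.8 CPM and from 0.792 to 2.35 CPM. Nedd4 rose by 0.53 (adjusted p = 1.7e-05) and by 0.48 (adjusted p = 0.00185), and Peli1 fell by 0.89 in KO-labelled cells (adjusted p = 1.2e-06) and had -0.31 under the inhibitor (adjusted p = 0.084). In KO-labelled cells Nedd4 (adjusted p = 0.142) and Peli1 (adjusted p = 0.0609) did not pass without the 4 libraries in doubt. Ubash3b, the relative of Ubash3a, had 0.07 in the KO comparison (adjusted p = 0.505) and fell by 0.33 under the inhibitor (adjusted p = 0.00277), with a difference of effects of 0.39 (adjusted p = 0.0154; 0.407 without the 4 libraries in doubt). Most calls of this list in KO-labelled cells were lost without the 4 libraries in doubt, as were most calls over all genes.

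The last list held 10 genes induced by the receptor, of which 7 were higher and 0 lower in KO-labelled cells (median 1.33), against 20.3% of all genes called higher. Egr3, at 2.64 CPM in WT, reached 22.9 CPM, a log2 fold change of 3.14 (adjusted p = 5.0e-09). Egr1 rose by 1.62 (adjusted p = 7.0e-08), Egr2 by 2.39 (adjusted p = 1.8e-07) and Tnfrsf9, the gene of 4-1BB, by 1.33 (adjusted p = 5.6e-07). Egr1 averaged 26.4 CPM in WT and 82 CPM in KO-labelled cells, below its 200 CPM in DMSO and 178 CPM in EPZ. Under the inhibitor 3 were higher, against 11.9% of all genes, and 0 lower (median 0.18), and the 3 became 1 without DMSO library 2. Egr3 rose by 1.75 (adjusted p = 0.0232), Nr4a1 by 0.79 (adjusted p = 0.0201) and Tnfrsf9 by 0.56 (adjusted p = 0.00778), while Egr1 had -0.17 (adjusted p = 0.489) and Egr2 0.66 (adjusted p = 0.0594). Irf4, Cd69 and Myc did not pass in either comparison. Without the 4 libraries in doubt, fewer of the 10 were called higher in KO-labelled cells, as were fewer of all genes.

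**Figure D4:**
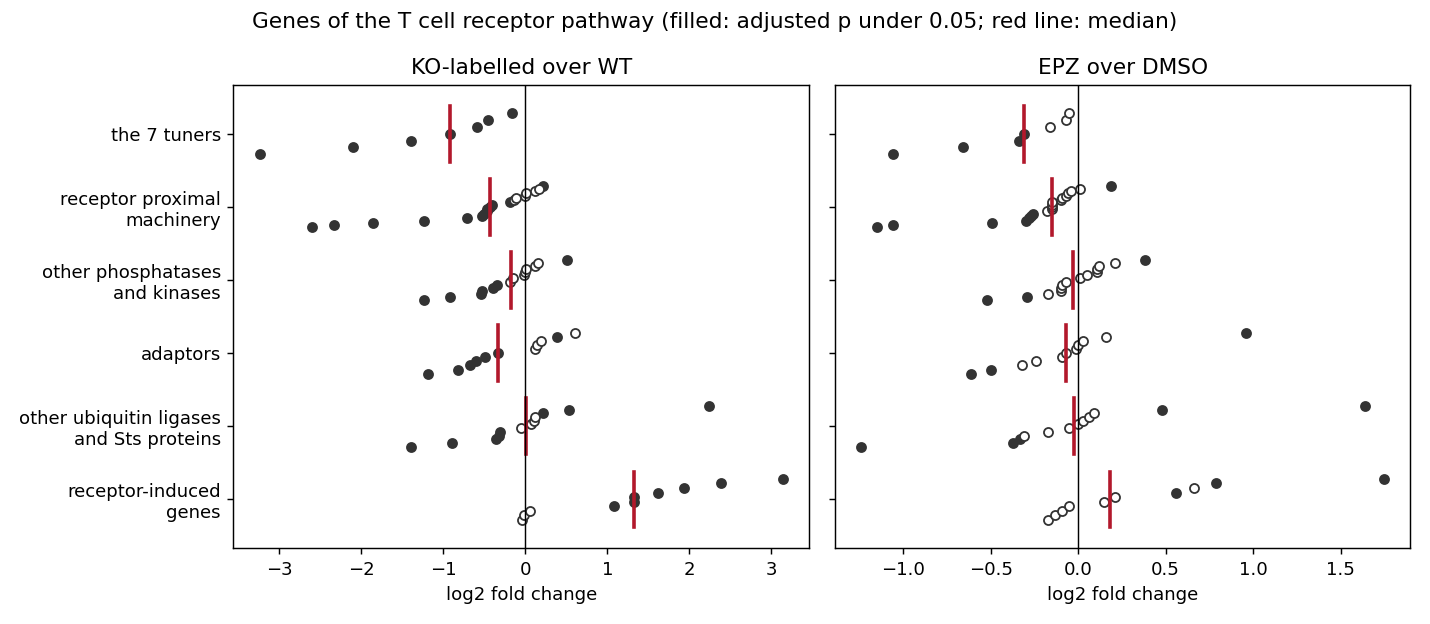
Log2 fold change (horizontal axis) of each gene of the 7 tuners and of 5 lists of receptor pathway genes (rows) in KO-labelled over WT (left) and EPZ over DMSO (right), on different horizontal scales; each circle is 1 gene, filled where the adjusted p was under 0.05, and the red line is the median of the row. The medians of the tuners lie at -0.92 and -0.31 and those of the receptor-induced genes at 1.33 and 0.18.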

How the data were processed

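Polyadenylated RNA was measured in 14 libraries of cultured CD8 T cells in 4 groups. The authors deposited raw read counts per gene, 1 column per library, with no normalization. TopHat2 2.1, Bowtie 1.1, HTSeq and the mm10 build are named per the submitters' processing notes. Which strand setting and annotation release were used for counting was not known here. Coordinates of 54906 genes equalled those in GENCODE mouse release M21, which gave strands, exons and overlaps. An unnamed line, with 0 counts, was dropped. Pairs of replicates differed by more than counting noise (chi-square per degree of freedom 2.05 to 18.1).

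The test was the quasi-likelihood F-test of edgeR 4.0.16 (R 4.3.3) after TMM normalization and filterByExpr (at least 10 counts, total at least 15), adjusted by Benjamini-Hochberg over all genes tested and called at 0.05. The KO against WT and EPZ against DMSO comparisons had separate fits, and the difference of the effects in a fit of all 14 libraries. Standard errors are the fold change divided by the root of F. Levels are CPM with the TMM factors of all libraries. The fitting steps were tested on simulated data. The alternatives included other scalings, DESeq2 1.42.0, limma 3.58.1, no filter, thinned counts, the replicate block and leaving out each library. Labels call the libraries biological replicates. The library names pair DMSO and EPZ by animal (correlations of deviations 0.618, 0.131, 0.00584 and 0.531). KO and WT come from different animals. The main fits did not use this pairing and treated all libraries as independent. The animal entered as a block in alternative fits alone. With that block, 5 of the genes followed here were called under the inhibitor in place of 4. Ptpn6 was the gene added (adjusted p = 0.0486, edgeR).

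The named genes are the 7, Dot1l, the members of each list with the smallest adjusted p (3 per comparison), the neighbouring tested genes, marker genes and, for each of the 7, the 2 genes most alike in pattern (pseudocount 0.1). Lck, Lcp2, Csk, Irf4, Cd69 and Myc were named after their values were seen. The summed B cell marker list is not reported here. The 7 genes and all lists were chosen with earlier results of these data known.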

Additional observations from a re-analysis of the deposited data

Results flagged for a closer look

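The response of 5 of the 7 genes differed between the experiments in the test of the KO effect minus the inhibitor effect, at log2 values of -2.19 for Cd6, -1.45 for Cd5, -1.33 for Themis, -0.88 for Ubash3a and -0.44 for Ptpn6. Dot1l differed too, at 0.43 (adjusted p = 0.0332, edgeR). Dot1l in DMSO library 2, at 80.3 CPM, lay far from the other DMSO libraries, with a gap of 0.831 of the range of the group. It was the single such library among 16 groups of 4 examined, and chance flags about 1 in 20 groups.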

How the results depend on the processing

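The fold changes of the 7 genes were recomputed under 15, 15 and 21 alternatives. They kept their direction and their side of the threshold in 93 of 105 values of the KO comparison, 102 of 105 of the inhibitor comparison and 144 of 147 of the difference of effects. The one change of sign was Ubash3a under the inhibitor, at a log2 value of 0 with all libraries thinned to 5643724 counts. Of the 12 KO values that lost the call, 11 were of Cblb, among them library totals alone (adjusted p = 0.0973), no filter (0.106) and all 14 libraries in 1 fit (0.0597). The cause was not tested. Leaving out 1 library at a time gave 6 to 7 genes called in the KO comparison, 4 to 5 under the inhibitor and 4 to 5 for the difference. Ptpn6 passed under the inhibitor without DMSO library 3 (-0.21, adjusted p = 0.0344). With the replicate block, 6, 5 and 5 genes were called. It ended the call of Cblb in the KO comparison (adjusted p = 0.0703), brought in Ptpn6 under the inhibitor and changed no other call of the 7. The replicate numbers of KO and WT do not pair the libraries (correlations 0.00443, -0.156 and -0.157). Counts over all genes moved by more than 1.5 times in a few settings. Without the 4 libraries whose sex went against the label, an alternative chosen after seeing the data, 479 genes were higher and 435 lower in KO-labelled cells in place of 2345 and 2333, and 27 and 41 in the difference of effects in place of 416 and 545. With thinned counts 957 genes were higher under the inhibitor in place of 1449, and 260 were higher in the difference. Without EPZ library 4, 610 genes were lower under the inhibitor in place of 1014. Without KO-labelled library 3 the difference held 265 higher and 362 lower genes, and without KO-labelled library 2 it held 302 lower. Lists hold few genes, so their counts move easily: the 2 phosphatase and kinase genes lower under the inhibitor were 1 when thinned. The difference of effects for Dot1l did not pass in 7 settings (0.37 to 0.54, adjusted p 0.0542 to 0.301). Another scaling moved the median of all genes by less than 0.1. Rnf128, Themis2 and Egr3 were under 5 CPM in several groups, where depth limits precision.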
